A study of Mus musculus with 12 samples.

Results

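Interferon-stimulated genes are genes that cells switch on after an interferon binds its receptor. The set described here holds 40 such genes, listed by name and chosen with earlier results of these data known, so shares of members called are set beside those of all genes as a description. Each listed gene was kept if it had at least 15 counts over all libraries, and all 40 of 40 were kept, out of 54232 gene identifiers counted in the series. All 40 also passed the filter on low counts that left 18618 genes for testing.

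The libraries came from dorsal wounds of male C57BLKS/J mice with a mutant leptin receptor (Lepr, db/db), which makes them obese and diabetic. Every group shared this genotype, so no library came from a mouse without the mutation. A punch wound of 6 mm through the full skin was made at 12 weeks of age, and the wound was taken on day 10. The labelled age is 12.5 weeks, which is lower than wounding at 12 weeks and collection on day 10 would give. In the TD group (5 libraries) the wound had only a Tegaderm film dressing, in the Strain group (4 libraries) a patch that imposed about 30% strain, and in the No Strain group (3 libraries) a patch that imposed none. Whether some of the wounds came from 1 mouse is not given, so each p-value measures the spread between these samples. The whole wound was sequenced, and in such bulk tissue a change in the number of cells of a type and a change in the RNA per cell cannot be told apart.

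Interferons fall into types. Type I interferons (alpha, beta and others) and type III interferons signal through kinases of the JAK family to a complex that holds STAT2 and IRF9 and binds the interferon-stimulated response element (ISRE) near its target genes. Interferon gamma, the type II interferon made mainly by T cells and natural killer (NK) cells, also signals through JAK kinases, and its targets carry the gamma-activated site (GAS). Many targets answer to both, and the proteins they encode restrict viruses and intracellular bacteria, sense foreign nucleic acids, present antigen and damp the signal.

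Promoter windows were examined to show the response elements that the set is known for. RefSeq windows on GRCm38.p6, running from 250 bases before to 50 bases after the transcription start, were matched by symbol for 31 of the 40 members. The core of the ISRE, spelled GAAA, any 2 bases and GAAA, or on the other strand TTTC, any 2 bases and TTTC, was present for 20 of these 31 members (64.5%), against 3.99% of the 27025 genes with a window of this length. The core of the GAS, spelled TTC, any 3 bases and GAA, which reads the same on both strands, was present for 9 of 31 members (29%), against 9.55% of genes. Both motifs were found for 6 members and neither for 8. A match is a description of the letters and not a measured binding site. In the windows of Bst2 and Ifitm3 an ISRE core and a GAS core overlap, and both were counted.

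The stretches below carry the motif nearest to the start for 11 members that the results turn on or that stand for their family. They are printed 5′ to 3′ on the strand of the gene, with motif letters in capitals, and positions are counted from the RefSeq start.
Gbp2, chr3:142620594-142620623, plus strand, an ISRE core: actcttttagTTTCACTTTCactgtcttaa
Gbp3, chr3:142559992-142560021, plus strand, overlapping ISRE cores: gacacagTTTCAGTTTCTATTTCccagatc
Gbp5, chr3:142496872-142496900, plus strand, a GAS core: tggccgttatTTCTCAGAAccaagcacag
Gbp7, chr3:142530258-142530317, plus strand, an ISRE core: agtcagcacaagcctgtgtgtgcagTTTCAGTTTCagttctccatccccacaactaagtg
Igtp, chr11:58199497-58199555, plus strand, a GAS core and then an ISRE core: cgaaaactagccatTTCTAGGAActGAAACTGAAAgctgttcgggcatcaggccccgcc
Irgm1, chr11:48871428-48871457, minus strand, overlapping ISRE cores: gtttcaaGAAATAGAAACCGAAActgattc
Irf1, chr11:53769899-53769957, plus strand, a GAS core: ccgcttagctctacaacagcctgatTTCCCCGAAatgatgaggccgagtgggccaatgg
Socs1, chr16:10785579-10785638, minus strand, overlapping ISRE cores: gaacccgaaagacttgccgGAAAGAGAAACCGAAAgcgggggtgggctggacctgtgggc
Isg15, chr4:156200850-156200909, minus strand, 3 overlapping ISRE cores: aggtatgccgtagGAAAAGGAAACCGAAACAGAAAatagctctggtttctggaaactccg
Ifit1, chr19:34640779-34640838, plus strand, 2 separate ISRE cores: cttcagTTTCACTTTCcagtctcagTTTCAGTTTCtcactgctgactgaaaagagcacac
Rsad2, chr12:26456538-26456597, minus strand, an ISRE core: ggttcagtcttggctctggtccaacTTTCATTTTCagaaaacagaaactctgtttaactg

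In GENCODE M21, which uses the same build, 8 of these 11 stretches lie outside every exon. The Gbp2 stretch covers 22 bases that M21 annotates as 5′ untranslated exon of a transcript that starts earlier, the Gbp5 stretch covers 1 such base, and the Irgm1 stretch lies wholly in an exon of an Irgm1 transcript that M21 starts farther upstream. Among the interferon-inducible GTPases, 6 of 7 members with a window held an ISRE core and 3 of 7 a GAS core. Neither motif was found in the windows of Irf7, Irf9, Oasl1, Oasl2, Cmpk2, Ifi44, Ifi47 and Xaf1, which says only that these letters are absent from those 300 bases.

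**Figure D1:**
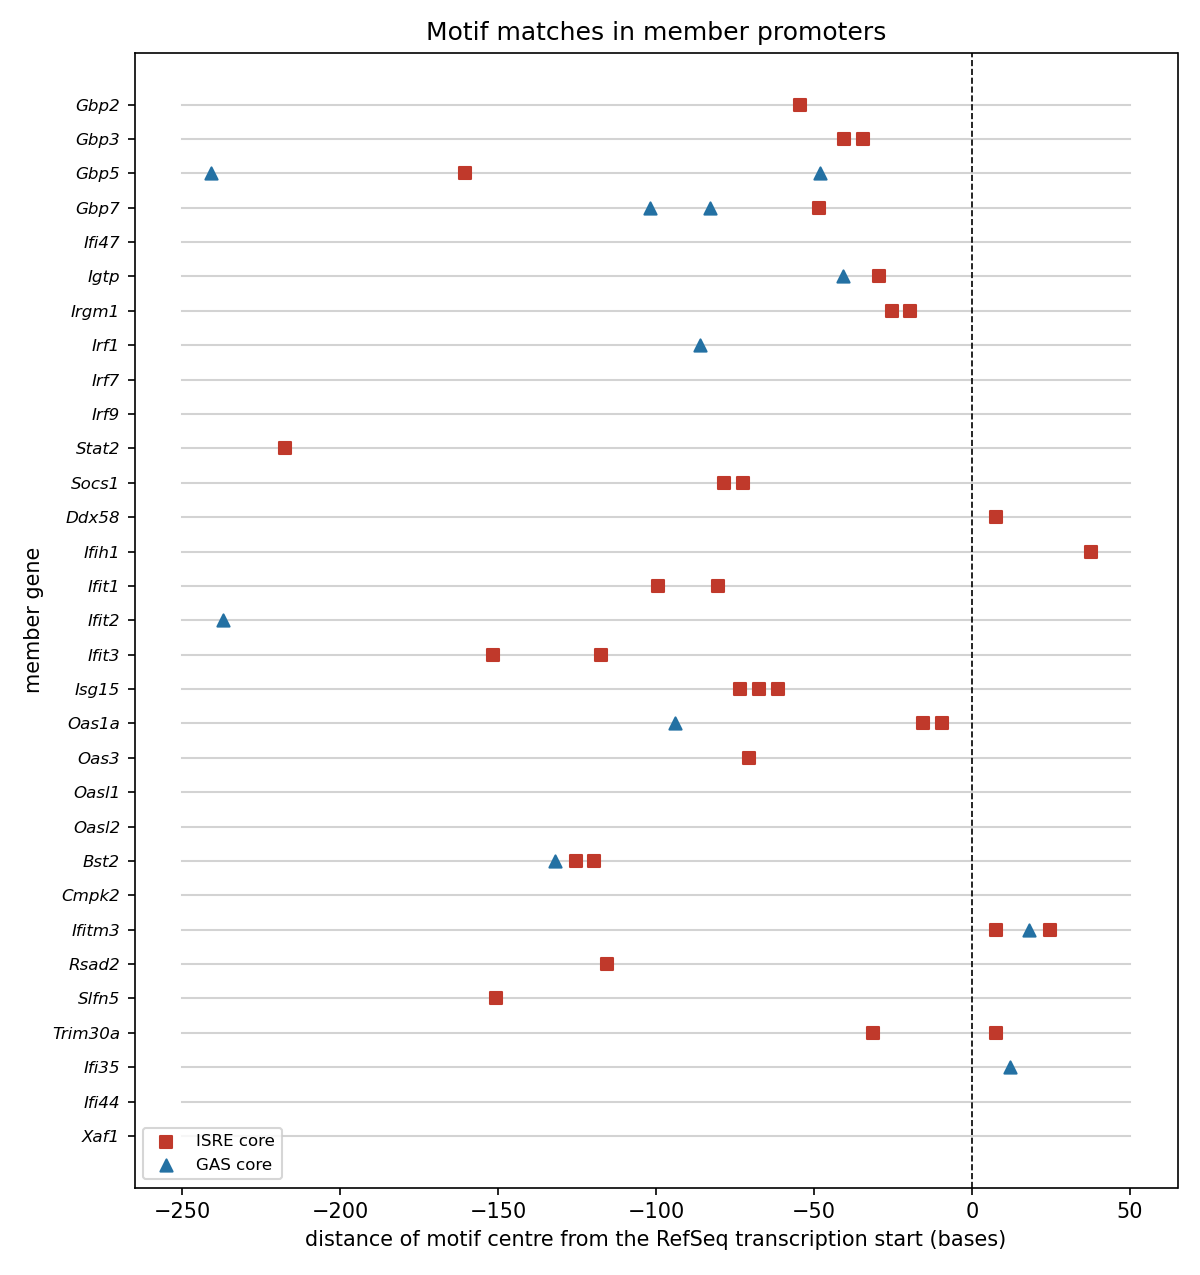
Motif positions in the RefSeq promoter windows of the 31 members that have one. The horizontal axis is the distance of the motif centre from the transcription start in bases, each grey line is 1 member's window, squares mark ISRE cores and triangles GAS cores. ISRE cores were found for 20 members and GAS cores for 9, and 8 members had neither.

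Library totals ran from 20354677 to 25059371 counts. The limit of 3 counts that an observed 0 allows was at most 0.147 CPM in any library, on totals before scaling. CPM, a gene's share of the library's counts in the usual unit, is otherwise scaled here by TMM factors, which adjust for differences in composition between libraries. The members together took 0.121% to 0.147% of counts in the TD libraries and 0.127% to 0.565% in the patch libraries. Keratinocyte markers (8 of 8 tested) summed to 7602 to 21200 CPM and fibroblast markers (6 of 6 tested) to 31500 to 56260 CPM over the 12 libraries, so markers of the labelled tissue were present. Some libraries stood apart. Strain replicate 2 had the highest value of all 12 libraries for 38 of the 40 members, and Strain replicate 1 had TD-like levels. The lowest value fell in TD replicate 1 for 22 members and in Strain replicate 1 for 12. The sample titles carry numbers, 1 to 6 in TD and 7 to 15 in the patch groups, so that any order of handling and the treatment cannot be told apart. Each title also ends in L or R, and what the letter stands for is not stated.

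Patch libraries differed widely among themselves in the level of this gene set, while TD libraries lay close together. Averaged over the 40 members, log2 CPM was 4.10, 4.60, 4.50, 4.35 and 4.51 in TD replicates 1 to 5. It was 4.27, 6.53, 5.49 and 5.17 in Strain replicates 1 to 4, and 5.56, 5.98 and 4.69 in No Strain replicates 1 to 3. Strain replicate 1 thus lay inside the range of TD, No Strain replicate 3 just above it, and the other 5 patch libraries well above. TD had a mean of 4.41 ± 0.20 (SD, n = 5), and Strain had 5.36 ± 0.93 (SD, n = 4). The mean of No Strain was 5.41 ± 0.66 (SD, n = 3). The median SD of a member's log2 CPM was 0.27 in TD, 0.97 in Strain and 0.66 in No Strain, whereas over all genes tested the median SD was 0.19, 0.22 and 0.19. The spread of the members within both patch groups was therefore several times that of a typical gene.

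Counted gene by gene, Strain replicate 2 exceeded the highest TD library for 40 of 40 members, Strain replicate 3 for 39, Strain replicate 4 for 35, No Strain replicate 2 for 39 and No Strain replicate 1 for 38. No Strain replicate 3 did so for 16 members and Strain replicate 1 for 2, Socs1 and Ifitm3. Of all genes tested, 24.4% to 31.7% exceeded the highest TD library in any 1 patch library. Strain replicate 1 fell below the lowest TD library for 12 of 40 members, where 24.1% of all genes tested did so in that library. Relative to the mean of TD, the median member was higher by 2.13 log2 units in Strain replicate 2, by 1.46 in No Strain replicate 2, by 1.10 in No Strain replicate 1, by 1.06 in Strain replicate 3 and by 0.72 in Strain replicate 4. The same value was 0.29 in No Strain replicate 3 and -0.14 in Strain replicate 1.

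**Figure D2:**
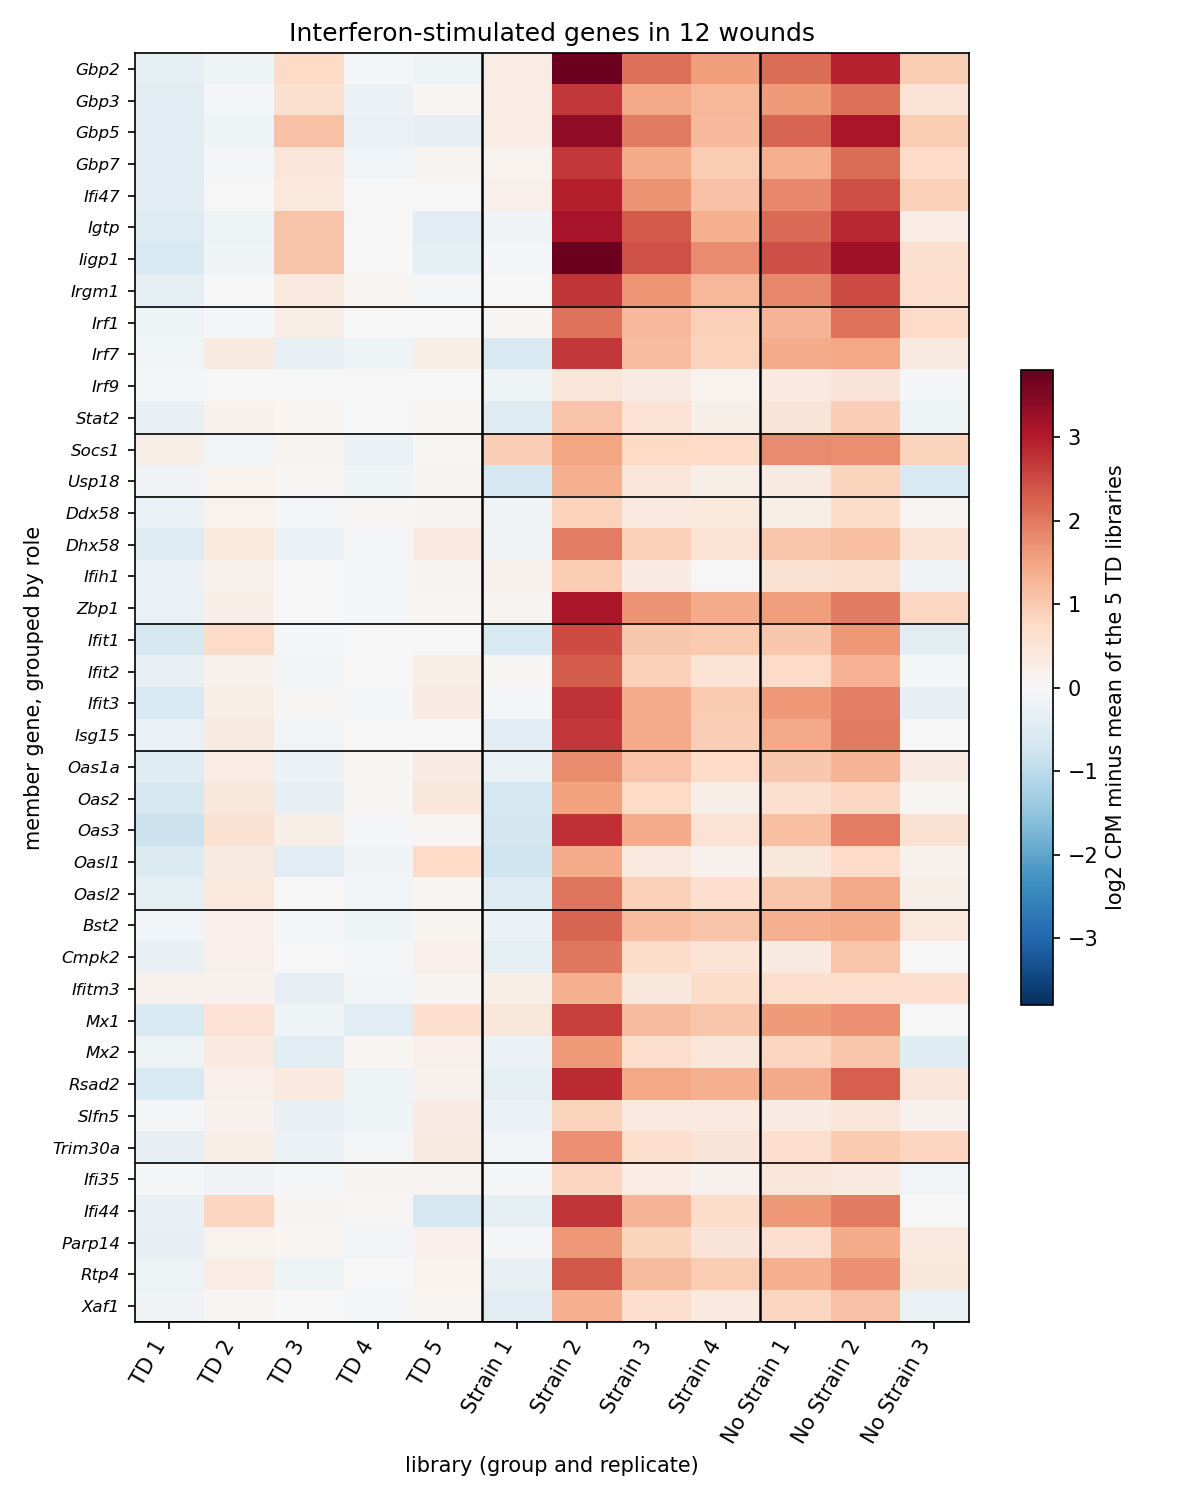
Heat map of log2 CPM minus the mean of the 5 TD libraries, for 40 members in rows, grouped by role between the horizontal lines, and 12 libraries in columns, grouped by treatment between the vertical lines. Strain replicate 2 is the darkest column, Strain replicate 1 resembles TD, and the top block, the interferon-inducible GTPases, holds the largest differences, up to 3.72 log2 units.

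The members moved together from wound to wound. Over the 12 libraries the median Pearson correlation of log2 CPM between 2 members was 0.91, with 777 of 780 pairs above 0.5 and a range of 0.45 to 0.995, and a single component held 91.9% of their variance. Without Strain replicate 2 the median correlation was 0.86 and that share 88.6%. These correlations are a description, since the libraries share their grouping. Rsad2, Isg15 and Rtp4 followed the mean of the other members most closely (0.99 each), and Socs1 (0.77), Oasl1 (0.81) and Ifitm3 (0.84) least. Among genes outside the set, the 5 whose log2 CPM followed the members' mean most closely over the 12 libraries were Gbp2b (0.99), Uba7 (0.99), Samhd1 (0.98), Tapbp (0.98) and Rnf213 (0.98).

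Against TD, wounds under the strain patch had higher levels of guanylate-binding proteins, immunity-related GTPases and a few other members. The edgeR quasi-likelihood test with Benjamini-Hochberg adjustment over all 18618 genes called 11 of 40 members higher (27.5%) and 0 lower, where 6.2% of all genes were called higher and 6.41% lower. These were Gbp2, Gbp3, Gbp7, Ifi47, Irgm1, Iigp1, Irf1, Socs1, Zbp1, Bst2 and Ifitm3. The count was 25 with DESeq2 and 1 without the filter on low counts. It was 0 with either the title letter or the skeletal muscle markers as a covariate. Shares of all genes, here and in the next comparisons, come from the edgeR fit above. Those under the other settings are not given beside the counts. The median log2 fold change was 1.22 over the members and 0.02 over all genes tested. The fold change was above 0 for 40 of 40 members (52.8% of all genes) and above 1 log2 unit for 23 (3.99% of all genes), and 30 members had an unadjusted p under 0.05 in the higher direction (15.7% of all genes). The groups did not overlap for 2 members, Socs1 and Ifitm3, that is 5% of members against 7.47% of all genes. Without Strain replicate 2, or without TD replicate 4, 1 member stayed called, which was Socs1, and without Strain replicate 1 the call extended to 28.

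Against TD, wounds under the patch without strain had higher levels of 9 members, 8 of which were also called for Strain. In the same fit, 9 of 40 members were called higher (22.5%) and 0 lower, where 9.35% of all genes were called higher and 8.4% lower. These were Gbp2, Gbp3, Gbp5, Gbp7, Ifi47, Irgm1, Iigp1, Irf1 and Socs1. The count was 15 with DESeq2, 23 with only these 2 groups fitted, 1 without the filter or with the title letter as a covariate, and 0 with the muscle markers. The median log2 fold change was 1.05, against 0.0045 over all genes. It was above 0 for 40 of 40 members (50.7% of all genes) and above 1 for 20 (5.12%), and 23 members had an unadjusted p under 0.05 in the higher direction (17.6%). The groups did not overlap for 16 members (40%), against 14.3% of all genes. Without No Strain replicate 1 or replicate 2 the call was kept by 1 member, Socs1, and it extended to 18 without Strain replicate 2, which enters this comparison only through the shared fit. Both comparisons use the same TD libraries, so their shared calls are not independent.

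**Figure D3:**
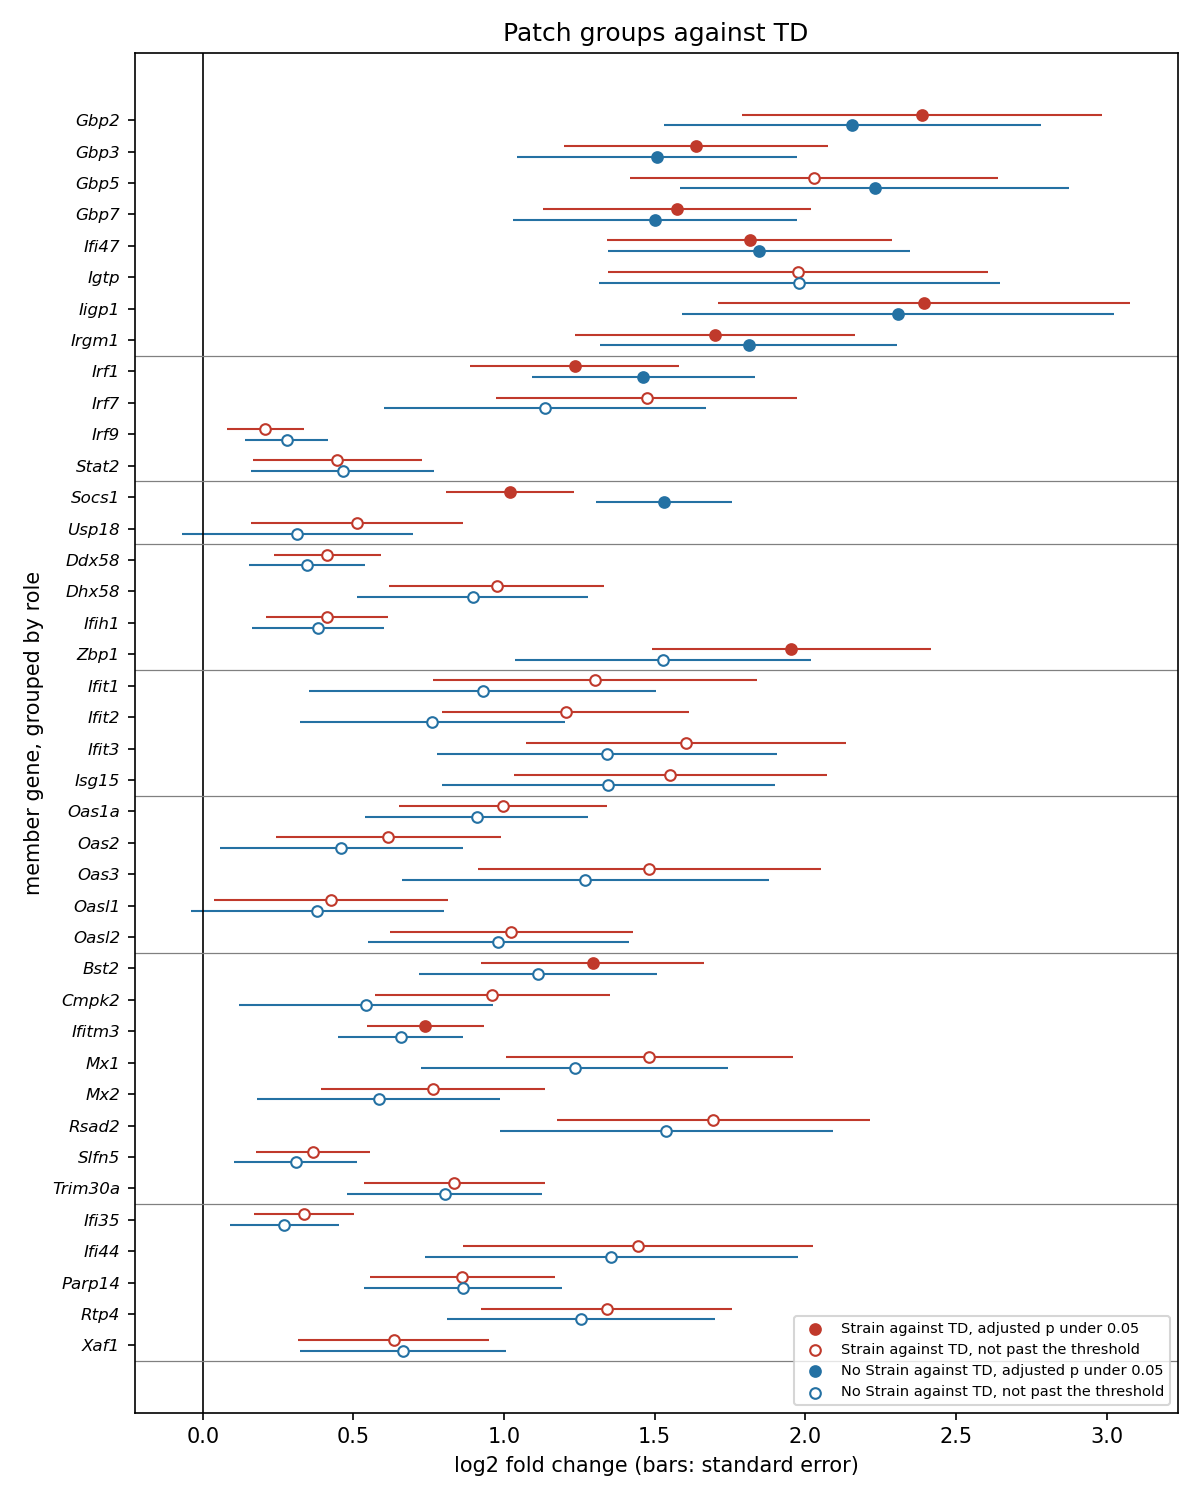
Log2 fold changes against TD (points) with standard errors (bars) for 40 members, red for Strain and blue for No Strain, filled where the edgeR adjusted p was under 0.05. All 80 points lie to the right of 0, and 11 red and 9 blue points are filled, most of them in the top block of interferon-inducible GTPases.

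When the mean of both patch groups was compared with TD, 21 of 40 members were called higher (52.5%) and 0 lower, with 12.4% of all genes called higher and 12.1% lower. The count was 7 without the filter or with the title letter as a covariate, and 0 with the muscle markers. The call covered 8 of 8 interferon-inducible GTPases, 5 of 8 Mx, viperin and restriction factors, 2 of 4 members of the ISG15 and IFIT group, 2 of 5 other induced proteins, and 1 member each of the transcription factors, feedback regulators, nucleic acid sensors and oligoadenylate synthetases. The range over the 12 fits that each left out a library was 9 called members, without TD replicate 4, to 33, without Strain replicate 1.

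No difference between Strain and No Strain was detected for any member. The edgeR test called 0 members, as it called 0% of all genes in either direction, and DESeq2 also called 0 members. At an unadjusted p under 0.05 there were 0 members, against 2.81% of all genes higher and 2.8% lower. Log2 differences (Strain minus No Strain) ran from -0.51 to 0.44 with a median of 0.08, and their standard errors ran from 0.15 to 0.76. The members with the smallest p, none of which passed, were Socs1 (-0.51, SE 0.24, edgeR adjusted p = 0.872), Ifit2 (0.44, SE 0.47, adjusted p = 0.948) and Cmpk2 (0.42, SE 0.45, adjusted p = 0.948). Leaving out Strain replicate 2 turned the differences of Ifit2 and Cmpk2 to -0.24 and -0.21, and moved the median over the members to -0.45.

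The ligands come first in the pathway. Of 20 interferon genes listed, 13 had 0 counts in all 12 libraries, among them Ifnb1 (interferon beta), and 6 had between 1 and 14 counts in total. The type I genes had 24 counts in all, of which the 14 alpha and beta genes held 4, Ifne (interferon epsilon) 14 and Ifnk (interferon kappa) 6, all 6 in Strain replicate 4 (0.287 CPM). Where a gene had 0 counts, up to 0.147 CPM in a library, on totals before scaling, is still allowed. Ifng, which encodes interferon gamma, was the 1 ligand tested. It had 3, 4, 5, 2 and 3 counts in TD, 4, 42, 22 and 17 in Strain and 59, 46 and 12 in No Strain, which is 0.0807 to 0.199 CPM in TD, 0.199 to 1.89 in Strain and 0.557 to 2.65 in No Strain. Its low counts in TD and in Strain replicate 1 overlap. The 3 No Strain libraries and the other 3 Strain libraries all lie above them. The log2 fold change was 2.71 (SE 0.65, edgeR adjusted p = 0.0236) for Strain and 3.58 (SE 0.65, adjusted p = 0.00582) for No Strain. For Strain the call was lost without Strain replicate 2 (adjusted p = 0.0796) or TD replicate 4 (adjusted p = 0.0576).

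The receptors varied less than their targets. The genes for the receptor chains rose in 1 of 6 cases for Strain (Ifnar2, log2 fold change 0.44, edgeR adjusted p = 0.0187) and in 5 of 6 for No Strain. Of all genes, 6.2% were called higher for Strain and 9.35% for No Strain. Ifnar2, a chain of the type I receptor, had 38.4 to 52.2 CPM in TD, 54.4 to 65.1 in Strain and 60.05 to 69.4 in No Strain, so neither patch group overlapped TD. The other type I chain, Ifnar1, changed by 0.26 (adjusted p = 0.0896) for Strain and 0.40 (adjusted p = 0.022) for No Strain. Ifngr1, which binds interferon gamma, changed by 0.31 (adjusted p = 0.0802) and 0.42 (adjusted p = 0.0316).

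Of 13 genes for signal transduction that are no members, 4 rose for Strain (6.2% of all genes) and 5 for No Strain (9.35% of all genes), and 0 fell. Those called included the kinase gene Jak2 (0.34, edgeR adjusted p = 0.0494, and 0.54, adjusted p = 0.00916), the phosphatase gene Ptpn2 (0.37, adjusted p = 0.0296, and 0.52, adjusted p = 0.00793) and Socs3, an inhibitor of several cytokine receptors (0.84, adjusted p = 0.0445, and 1.50, adjusted p = 0.00485).

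The interferon-inducible GTPases held the largest changes of the set. They include the guanylate-binding proteins (Gbp genes) and the immunity-related GTPases (Igtp, Irgm1, Iigp1, Ifi47), which attack the vacuoles of intracellular pathogens. For Strain 6 of 8 rose, and for No Strain 7 of 8, against 6.2% and 9.35% of all genes called higher. The same shares of all genes stand beside the counts for the other roles below. Their median log2 fold change was 1.90 for Strain and 1.91 for No Strain. In the following sentences values are in replicate order.

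Gbp2 had 29.5, 34.2, 64.2, 36.0 and 34.2 CPM in TD, 46.7, 504, 164 and 115 in Strain, and 167, 288 and 74.4 in No Strain. Only Strain replicate 1 lay within the TD range, and TD replicate 3 was the highest TD library. The log2 fold change was 2.39 (SE 0.60, edgeR adjusted p = 0.0276) for Strain and 2.16 (SE 0.63, adjusted p = 0.0364) for No Strain. Iigp1, an effector of the immunity-related family, had 31.6, 43.4, 101, 46.8 and 37.8 CPM in TD, 46.0, 629, 256 and 166 in Strain, and 260.0, 442 and 72.5 in No Strain. Here TD replicate 3 exceeded both Strain replicate 1 and No Strain replicate 3, and both patch groups overlapped TD. Its log2 fold changes, 2.39 (SE 0.68, adjusted p = 0.0423) and 2.31 (SE 0.72, adjusted p = 0.0463), were the largest of the members in both comparisons, level with Gbp2 for Strain.

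The neighbours of Gbp2 on chromosome 3 were also highest in Strain replicate 2 and then in No Strain replicate 2. Gbp3 had 24.9, 31.9, 50.3, 28.2 and 35.1 CPM in TD, 40.5, 213, 90.1 and 80.2 in Strain, and 102, 141 and 47.6 in No Strain. Gbp5, which takes part in inflammasome assembly, had 6.04, 7.22, 17.4, 6.78 and 6.44 CPM in TD, 9.78, 83.1, 31.6 and 18.8 in Strain, and 37.6, 70.0 and 15.9 in No Strain. Gbp7 had 17.6, 23.0, 32.6, 22.1 and 25.6 CPM in TD, 26.1, 153, 62.6 and 46.6 in Strain, and 62.4, 104 and 39.0 in No Strain. In each of the 3 genes TD replicate 3 was the highest TD library and above Strain replicate 1, while No Strain lay wholly above TD for Gbp7 and overlapped it for Gbp3 and Gbp5. The log2 fold changes for Strain were 1.64 for Gbp3 (edgeR adjusted p = 0.0338), 2.03 for Gbp5 (adjusted p = 0.0511, not past the threshold) and 1.57 for Gbp7 (adjusted p = 0.0404). For No Strain they were 1.51 (adjusted p = 0.045), 2.23 (adjusted p = 0.0361) and 1.50 (adjusted p = 0.0483).

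The immunity-related GTPases on chromosome 11 also had their highest values in Strain replicate 2 and then in No Strain replicate 2. Irgm1, a regulator of the family, had 30.2, 38.4, 50.4, 40.8 and 37.3 CPM in TD, 38.3, 256, 124 and 94.3 in Strain, and 137, 216 and 62.4 in No Strain. Ifi47 had 21.2, 29.3, 37.8, 28.6 and 29.3 CPM in TD, 32.9, 222, 94.1 and 62.5 in Strain, and 102, 159 and 54.2 in No Strain. For both genes No Strain lay wholly above TD, while Strain replicate 1 was within it. Irgm1 changed by 1.70 (SE 0.46, edgeR adjusted p = 0.0363) and 1.81 (SE 0.49, adjusted p = 0.0285), and Ifi47 by 1.82 (SE 0.47, adjusted p = 0.0311) and 1.85 (SE 0.50, adjusted p = 0.028). Igtp had folds as large, 1.98 in both comparisons, but did not pass (adjusted p = 0.061 and 0.0606). Its TD libraries spread from 19.0 to 56.2 CPM, and No Strain replicate 3 (32.6 CPM) lay within that range. Igtp shares 162 exon bases (8.01% of its exon length) with Irgm2, and how reads there were assigned is not given in the sources used here. Gbp, Oas, Ifit and Mx genes also have near-identical relatives, so the split of reads within a family is uncertain.

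In GENCODE M21 (GRCm38) the called GTPase genes lie in clusters. Gbp2 spans chr3:142620602-142638008, Gbp3 chr3:142560026-142573209, Gbp5 chr3:142493978-142522344 and Gbp7 chr3:142530342-142550149, all on the plus strand. Irgm1 spans chr11:48861968-48871683 on the minus strand and Ifi47 chr11:49076587-49096974 on the plus strand, and Iigp1 lies on chromosome 18. Of the other called members, Irf1 lies at chr11:53770014-53778374, Socs1 at chr16:10782240-10785536, Zbp1 at chr2:173206612-173218923, Bst2 at chr8:71534255-71537456 and Ifitm3 at chr7:141009586-141010770. Counts cover the annotated exons of each gene.

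Within TD the GTPases set 1 library apart. Their summed level was 410 CPM in TD replicate 3, and it was between 180.2 and 236 CPM in the other 4 TD libraries. Relative to the mean of TD, the GTPases were at 1.66 times in that library and the other 7 roles between 0.91 times (oligoadenylate synthetases) and 1.05 times (feedback regulators). Irf1 was also highest of TD there. That library also had the highest Ifng level of TD, 0.199 CPM from 5 counts, and the highest summed T and NK cell markers of TD, 43.3 CPM. It had the highest skeletal muscle (14930 CPM) and adipocyte (4144 CPM) marker sums and the lowest fibroblast sum (31500 CPM) of all 12 libraries. The part of these in the GTPase level was not tested.

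Of the 4 transcription factors, Irf1 rose in both comparisons. Irf1, an activator that answers strongly to interferon gamma, had 58.0, 61.3, 77.2, 64.7 and 64.6 CPM in TD, 67.5, 271, 153 and 121 in Strain, and 160.3, 271 and 107 in No Strain. No Strain did not overlap TD. Its log2 fold change was 1.23 (SE 0.35, edgeR adjusted p = 0.0402) for Strain and 1.46 (SE 0.37, adjusted p = 0.0221) for No Strain. Irf7, which amplifies type I interferon production, had fold changes of 1.47 (adjusted p = 0.0746) and 1.14 (adjusted p = 0.161). Stat2 and Irf9, partners in the ISRE-binding complex, had 0.45 (adjusted p = 0.318) and 0.46 (adjusted p = 0.314), and 0.21 (adjusted p = 0.306) and 0.28 (adjusted p = 0.184). Irf9 varied least of the set, from 48.9 to 76.5 CPM over the 12 libraries.

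Of the 2 feedback regulators, Socs1 rose and Usp18 did not pass. Socs1, which blocks JAK kinases, had 8.55, 6.81, 7.88, 6.25 and 7.66 CPM in TD, 14.2, 21.1, 12.6 and 12.4 in Strain, and 25.7, 25.3 and 13.5 in No Strain. Every patch library lay above every TD library, Strain replicate 1 included, which separates Socs1 from most of the set. Its log2 fold change was 1.02 (SE 0.21, edgeR adjusted p = 0.0143) for Strain and 1.53 (SE 0.23, adjusted p = 0.00276) for No Strain, the smallest p of any member in both comparisons. It was the 1 member called in each of the 12 fits without a library, in both comparisons with TD. Usp18, which removes ISG15 from proteins and blocks the type I receptor, had fold changes of 0.51 (adjusted p = 0.363) and 0.31 (adjusted p = 0.608).

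Of the 4 nucleic acid sensors, Zbp1 rose for Strain. Zbp1, a sensor of left-handed nucleic acids that can trigger cell death, had 15.7, 22.4, 18.8, 17.7 and 19.97 CPM in TD, 20.3, 162, 61.6 and 49.6 in Strain, and 57.2, 73.9 and 32.5 in No Strain. Its log2 fold change was 1.95 (SE 0.46, edgeR adjusted p = 0.023) for Strain and 1.53 (SE 0.49, adjusted p = 0.0519, just short of the threshold) for No Strain. The No Strain libraries did not overlap TD, while Strain replicate 1 lay inside it. The RNA helicase sensors Ddx58, Ifih1 and Dhx58 had fold changes of 0.41, 0.41 and 0.98 for Strain and 0.35, 0.38 and 0.90 for No Strain, none past the threshold.

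Mx proteins, viperin (Rsad2) and other restriction factors block viral entry, replication or release. Of these 8 members, 2 rose for Strain (6.2% of all genes) and 0 for No Strain (9.35% of all genes). Ifitm3, which keeps viruses from fusing with endosomes, had 238, 239, 174, 199 and 229.9 CPM in TD, 251, 549, 291 and 350.0 in Strain, and 344, 342 and 336 in No Strain. Neither patch group overlapped TD. Its log2 fold change was 0.74 (SE 0.19, edgeR adjusted p = 0.0319) for Strain and 0.66 (SE 0.21, adjusted p = 0.0502) for No Strain. Bst2 (tetherin), which holds budding virions at the cell surface, had 31.1, 38.2, 32.1, 29.5 and 35.8 CPM in TD, 28.3, 153, 74.8 and 71.1 in Strain, and 84.7, 87.7 and 43.9 in No Strain. Strain replicate 1 was the lowest of the 12 libraries for Bst2, and the No Strain libraries lay wholly above TD. Its fold change was 1.29 (SE 0.37, adjusted p = 0.0425) and 1.11 (SE 0.40, adjusted p = 0.0727). The other 6, Mx1, Mx2, Rsad2, Cmpk2, Slfn5 and Trim30a, had fold changes of 0.37 to 1.69 for Strain and 0.31 to 1.54 for No Strain. GENCODE M21 annotates Mx2 as a polymorphic pseudogene and every other member of the set as protein coding.

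The remaining roles held no call in either comparison. In the ISG15 and IFIT group, ISG15 is a ubiquitin-like modifier and IFIT proteins bind foreign RNA. Isg15 had 8.47, 12.9, 9.56, 10.1 and 10.3 CPM in TD, 7.69, 66.0, 27.3 and 19.4 in Strain, and 27.8, 40.3 and 10.2 in No Strain. A library of each patch group lay in or below the TD range, and its fold changes of 1.55 and 1.35 did not pass (edgeR adjusted p = 0.0719 and 0.114). Ifit2 had 15.7, 21.3, 17.6, 19.2 and 22.6 CPM in TD, 19.9, 94.7, 35.7 and 27.4 in Strain, and 31.5, 47.8 and 18.7 in No Strain. The 4 members of this group had a median fold change of 1.43 for Strain and 1.14 for No Strain. In No Strain replicate 3 this group was at 0.88 times the TD mean, while the GTPases were at 1.63 times.

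The oligoadenylate synthetases (Oas1a, Oas2, Oas3) make the messenger that activates RNase L, and Oasl1 and Oasl2 are related proteins. Their fold changes ran from 0.43 to 1.48 for Strain and from 0.38 to 1.27 for No Strain. Oasl1 had 6.21, 11.4, 6.69, 8.19 and 15.2 CPM in TD, 5.26, 24.1, 11.7 and 10.1 in Strain, and 12.1, 15.0 and 10.0 in No Strain. All patch libraries but Strain replicates 1 and 2 lay within the TD range. The direction of Oasl1 for Strain rested on Strain replicate 2, without which the fold change was -0.08. The other induced proteins, Ifi35, Ifi44, Parp14, Rtp4 and Xaf1, had fold changes of 0.34 to 1.45 and 0.27 to 1.36.

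**Figure D4:**
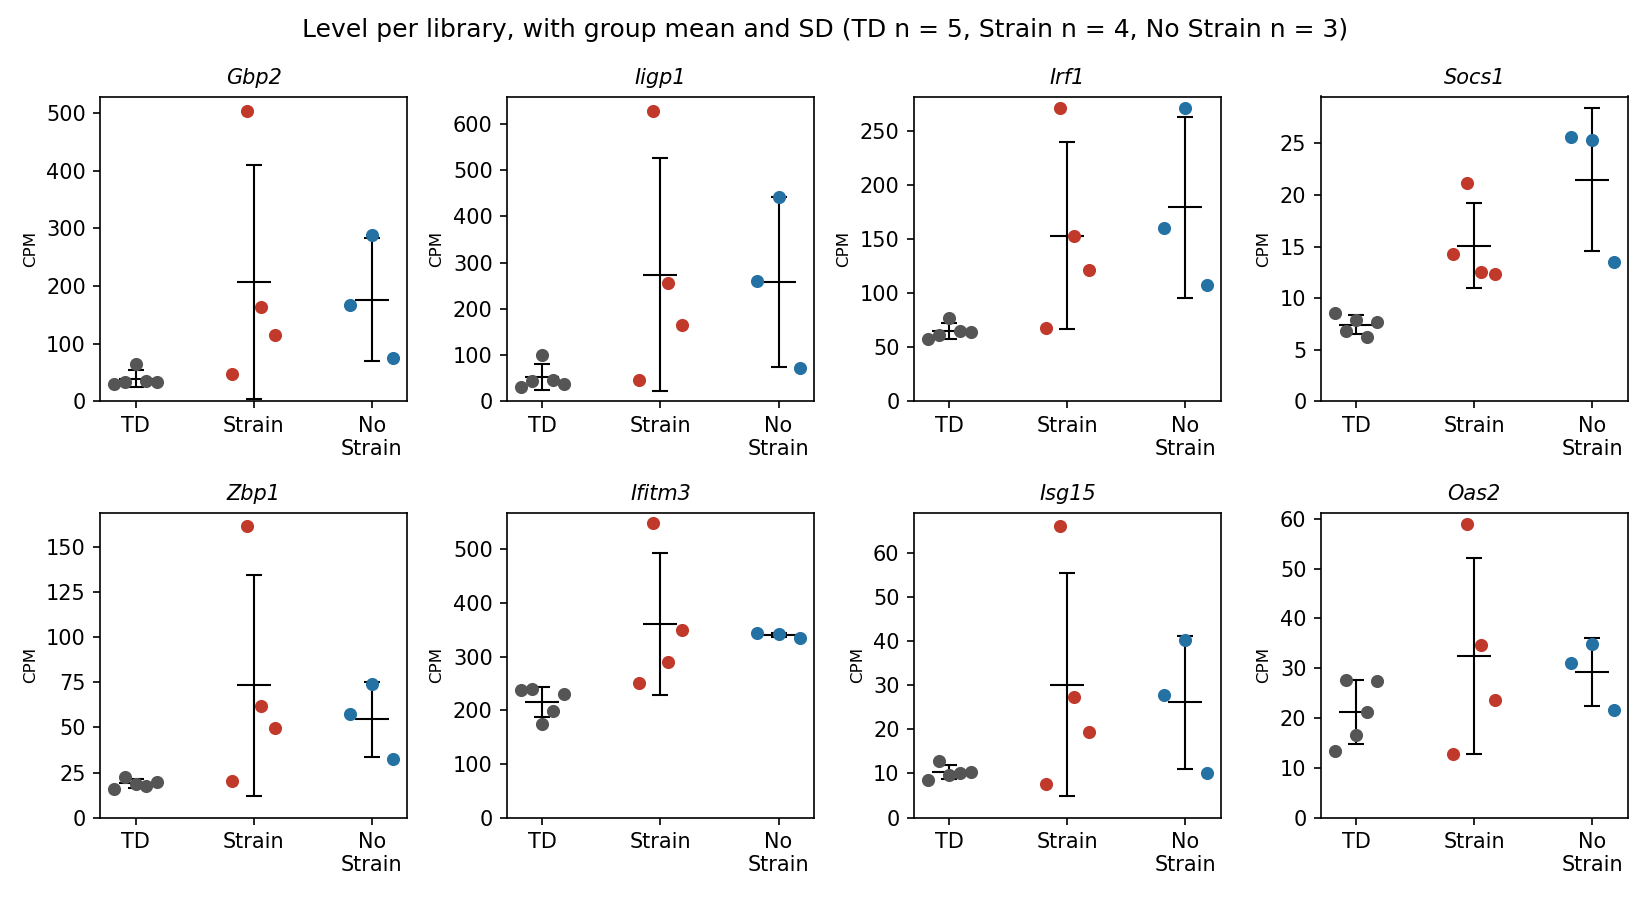
CPM per library for 8 members (points), with the group mean (long dash) and SD (bars) for the 5 TD, 4 Strain and 3 No Strain libraries. The TD points lie close together in most panels, while those of Oas2 run from 13.3 to 27.6 CPM. Strain replicate 2 is the top red point in every panel. The lowest Strain point sits at TD level except for Socs1 and, by a small margin, Ifitm3.

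Levels between genes were compared per length of annotated exons. Ifitm3 was by far the most abundant member at 436 CPM per kilobase, averaged over the 12 libraries, followed by Bst2 (65.5), Gbp2 (51.6), Igtp (39.1) and Irf1 (31.0). Ifi44 (0.951), Mx2 (1.68), Oas3 (2.15) and Cmpk2 (2.97) were the lowest. Neighbours in this order often differ by less than their spread over the libraries, for example Iigp1 (30.5) and Slfn5 (29.9). Gbp5, with fold changes above 2 log2 units in both comparisons, ranked 34 of 40 at 3.90 CPM per kilobase.

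Genes of the other interferon lists were counted in the same fit. Over 100 tested genes of 5 lists (ligands, receptors, signal transduction, nucleic acid sensing and 65 further interferon-stimulated genes), 30 were called higher and 1 lower for Strain, 31 higher and 1 lower for No Strain, and 0 between Strain and No Strain. Of all genes tested, 6.2% were called higher and 6.41% lower for Strain, and 9.35% higher and 8.4% lower for No Strain. Among the 65 further targets, 21 rose for Strain and 15 for No Strain, with 0 lower. By the smallest p they were led by Ifitm1, a relative of Ifitm3 (1.27, edgeR adjusted p = 0.0195, and 1.87, adjusted p = 0.00399), and by Slfn1 (2.11, adjusted p = 0.0089, and 2.23, adjusted p = 0.00528) and Slfn2 (1.09, adjusted p = 0.0147, and 1.38, adjusted p = 0.00531), which act in T cells and other immune cells. Every patch library exceeded every TD library for Ifitm1, Slfn1 and Slfn2.

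In the sensing list, 3 of 15 genes rose for Strain (6.2% of all genes) and 5 of 15 for No Strain (9.35% of all genes). Aim2, a sensor of DNA in the cytosol, had 8.96 to 13.0 CPM in TD, 16.5 to 25.5 in Strain and 17.8 to 21.0 in No Strain, a log2 fold change of 0.78 (edgeR adjusted p = 0.0092) and 0.75 (adjusted p = 0.00917). The adaptor gene Myd88 changed by 0.45 (adjusted p = 0.0325) and 0.65 (adjusted p = 0.00765), and the kinase gene Tbk1 by 0.28 (adjusted p = 0.034) and 0.36 (adjusted p = 0.014). Mavs, the adaptor of the RNA helicase sensors, was the 1 gene lower, with 35.5 to 39.0 CPM in TD, 28.5 to 33.0 in Strain and 27.6 to 31.7 in No Strain. It fell by 0.25 log2 units (adjusted p = 0.0281) and 0.29 log2 units (adjusted p = 0.0175).

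The chemokine genes Cxcl9 and Cxcl10, named after their values had been seen, had changes above 3 log2 units in both comparisons. Both encode ligands of CXCR3, which draws T and NK cells, and Cxcl9 answers chiefly to interferon gamma. Cxcl9 had 10.0, 8.78, 16.9, 10.5 and 6.09 CPM in TD, 16.2, 309, 113 and 58.7 in Strain, and 255, 229 and 38.4 in No Strain. Its order of libraries resembled that of the GTPases, with TD replicate 3 the highest of TD and above Strain replicate 1. The log2 fold change was 3.57 (edgeR adjusted p = 0.0161) and 4.05 (adjusted p = 0.00839) for Cxcl9, and 3.10 (adjusted p = 0.0284) and 3.73 (adjusted p = 0.0128) for Cxcl10.

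Markers of some other cell types moved with the treatment too. Over all genes, 6.2% were called higher and 6.41% lower for Strain, with 9.35% and 8.4% for No Strain. T and NK cell markers (10 of 10 tested) summed to 29.1 to 43.3 CPM in TD, 53.6 to 134 in Strain and 62.4 to 108 in No Strain, and 6 of 10 were called higher for Strain and 5 of 10 for No Strain. Cd3e, the defining T cell marker, was not among them, while Gzma, a granule protease of cytotoxic cells, rose by 2.69 log2 units (edgeR adjusted p = 0.00986) and 3.02 log2 units (adjusted p = 0.00477). Neutrophil markers (10 of 10 tested) summed to 538 to 1724 CPM in TD, 1008 to 8803 in Strain and 2328 to 5320 in No Strain, with 9 of 10 called higher for Strain and 7 of 10 for No Strain. Macrophage markers (10 of 10 tested) summed to 2587 to 5617 CPM in TD, 4835 to 7592 in Strain and 4951 to 7823 in No Strain, and 0 of 10 were called in either comparison. Skeletal muscle markers (9 of 10 tested) summed to 6087 to 14930 CPM in TD, 2778 to 5322 in Strain and 3932 to 8792 in No Strain, with 6 of 9 and 2 of 9 called lower. Plasmacytoid dendritic cell markers (4 of 5 tested) summed to 26.4 to 63.7 CPM in TD, 19.4 to 25.9 in Strain and 22.2 to 38.4 in No Strain. Most of that sum was Cox6a2, with 20.8 to 59.0 CPM in TD, 11.3 to 20.6 in Strain and 14.8 to 33.3 in No Strain. The mean log2 CPM of the 4 markers overlapped between the groups, at 1.48 to 2.01 in TD, 1.68 to 2.05 in Strain and 1.775 to 2.15 in No Strain. For Strain 1 of 4 was called higher (Ccr9, 0.81, edgeR adjusted p = 0.0464) and 1 of 4 lower (Cox6a2, also a muscle gene, -1.45, adjusted p = 0.0191), and for No Strain 0 of 4. Siglech, the defining one, had 1.19 to 2.46 CPM in TD, 1.13 to 4.23 in Strain and 2.09 to 3.26 in No Strain, and Klk1 reached at most 0.675 CPM. In the other lists the 1 marker with 0 counts in a library was Tnnc2, of muscle, which was too low to be tested.

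The library with the largest neutrophil marker sum, Strain replicate 1 at 8803 CPM, had the members at TD level. That sum rests on S100a8 (3631 CPM) and S100a9 (4756 CPM). By the mean log2 CPM over all 10 neutrophil markers, Strain replicate 1 ranked 5 of 12 (6.26) and No Strain replicate 3 ranked 1 (7.28), and Strain replicate 3 ranked 7 (5.56) with 39 of 40 members above TD. The libraries highest in T and NK cell markers, Strain replicate 2 (134 CPM) and No Strain replicate 1 (108 CPM), were also high in the members. Strain replicate 1 (66.4 CPM) was not high in the members. Its sum rests largely on Cd4 (21.9 CPM), Trbc2 (13.5) and Cd3g (11.3). Cd3d (3.38) and Cd8a (2.13) also exceeded the TD range there, and Cd3e (5.11) did not. Nkg7 (2.13), Klrd1 (1.74) and Ncr1 (1.34) did not exceed it either, and Gzma (3.92) lay just above it. By the mean log2 CPM over all 10 T and NK cell markers Strain replicate 1 ranked 7 of 12 (2.16), the lowest of the patch libraries. No Strain replicate 3 ranked 5 (2.40) with 16 members above the highest TD library, and Strain replicate 4 ranked 6 (2.19) with 35. With the muscle marker level as a covariate, 0 members were called in either comparison with TD, and the median log2 fold change of the members was 0.69 for Strain and 0.75 for No Strain. That covariate differs between the groups itself and left 1 gene called of all tested for Strain. The part of these cell markers in the member levels was not tested.

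With the title letter as a covariate, 0 members were called for Strain and 1, Socs1, for No Strain, with medians of 1.21 and 1.10. TD has a single library with the letter L. Within letter R, the members' mean log2 CPM was 4.49 in TD (4 libraries), 5.49 in Strain (1 library) and 5.56 in No Strain (1 library). Within letter L it was 4.10 in TD (1 library), 5.32 in Strain (3 libraries) and 5.33 in No Strain (2 libraries).

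**Figure D5:**
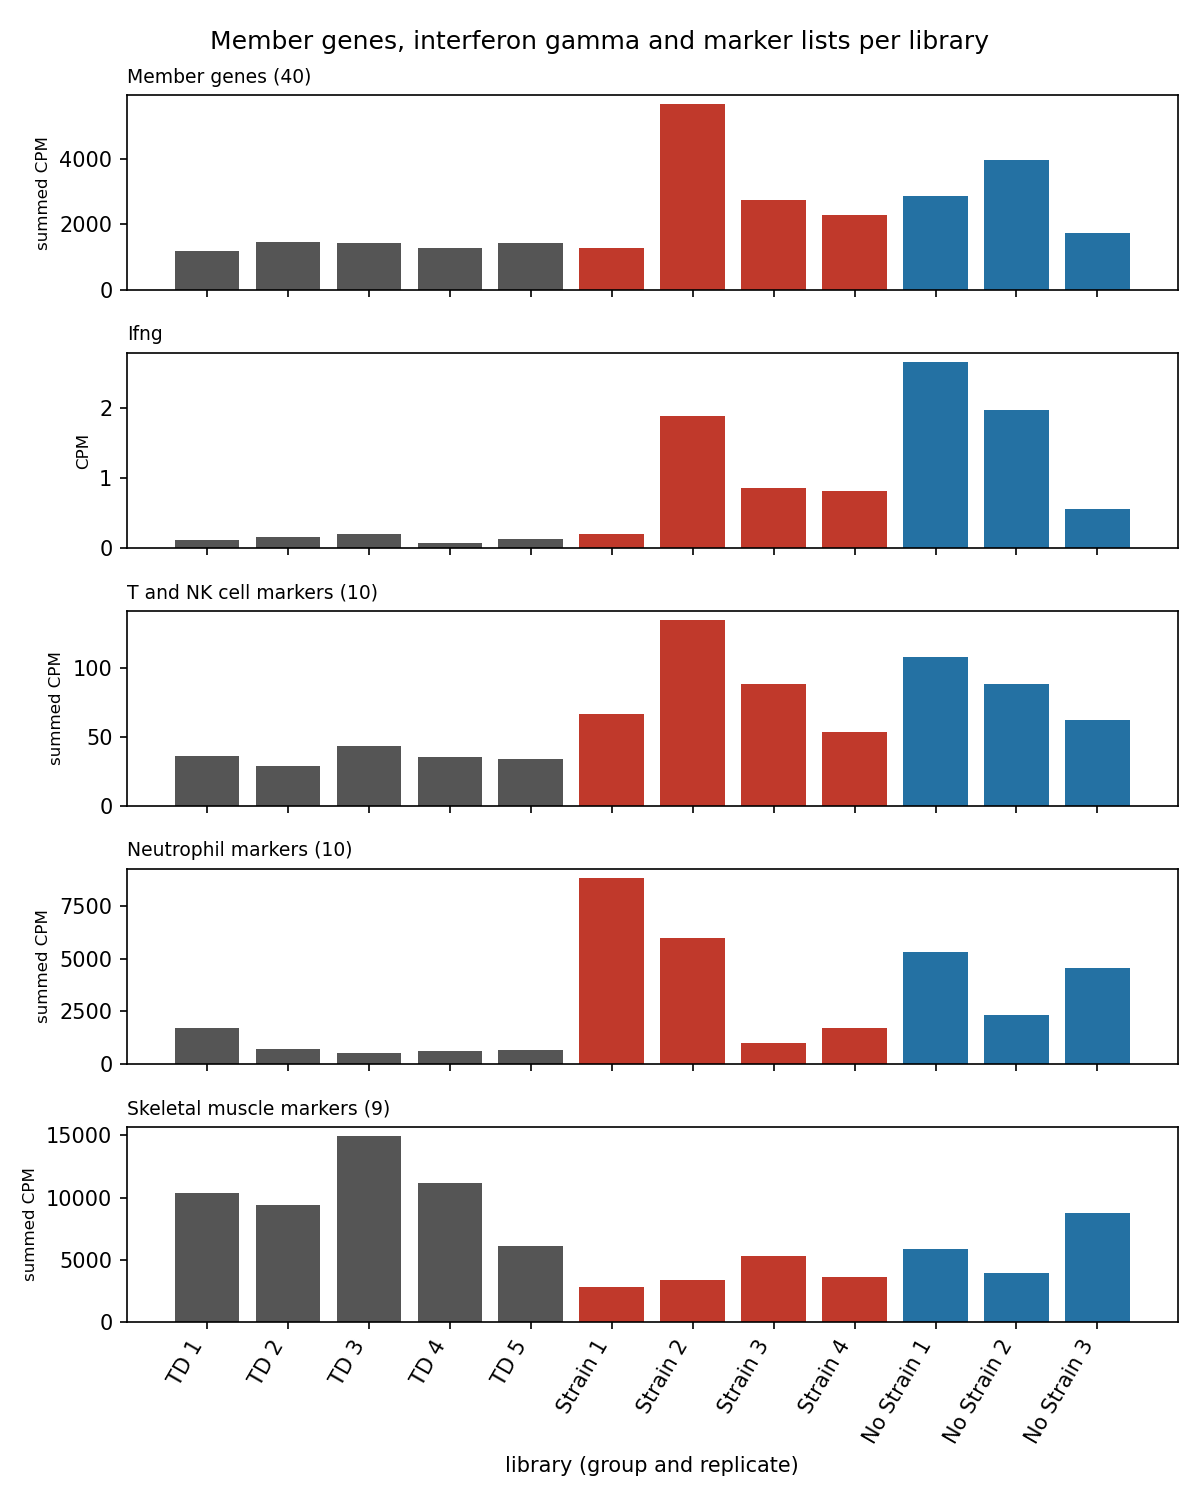
Summed CPM per library (bars) of the 40 members, of Ifng, and of the tested markers of T and NK cells, neutrophils and skeletal muscle, grey for TD, red for Strain and blue for No Strain, each panel with its own linear axis from 0. Strain replicate 1 has the tallest neutrophil bar, 8803 CPM, of which S100a8 gives 3631 and S100a9 gives 4756, and a member bar at TD level, 1279 CPM, while Ifng is near the TD level there and higher in the other patch libraries.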

How the data were processed

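RNA was measured by poly(A) RNA-seq in 12 wounds. The authors deposited raw read counts per gene, 1 file a library; bcl2fastq 2.17, FastQC, cutadapt, STAR, featureCounts and DESeq2 with GRCm38 are named in the submitters' processing notes. The strand setting and the handling of reads that map to several genes are not given in the sources used here. Counts were matched to GENCODE M21 symbols (54165 of 54232 identifiers). All 12 libraries were fitted together with edgeR 4.0.16 (R 4.3.3, limma 3.58.1): genes kept by filterByExpr (count 10, total 15), TMM scaling, a robust quasi-likelihood test, and Benjamini-Hochberg adjustment over 18618 genes, with calls at an adjusted p under 0.05. CPM used TMM-scaled totals, and log2 CPM a prior count of 2. Each standard error was derived as the absolute log2 fold change divided by the square root of the quasi-likelihood F statistic. The test was checked on simulated data. No pair of libraries within a group agreed within counting noise; pairs across groups were not compared. Alternatives were DESeq2 1.42.0, its size factors, other filters, only the groups compared, the title letter or muscle markers as covariates, and each library left out. The members and lists were chosen with earlier results of these data known. Values in every library are given for members past the threshold, at most the 10 of smallest p in a direction, with others by range. In the case of Strain against TD the 11 called members were all given. Values of members not called, such as Isg15, Ifit2 and Oasl1, and the genes Cxcl9 and Cxcl10 were chosen after their values were seen. The result for 1 gene of the signal transduction list is not reported here.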

Additional observations from a re-analysis of the deposited data

Results flagged for a closer look

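In the TD group, replicate 3 stood apart from the other 4 libraries for a pair of guanylate-binding protein genes. Gbp2 had a log2 CPM of 6.01 there, and the next TD library had 5.18, a gap that made up 0.745 of the group's whole range. Gbp5 had 4.13 against 2.87 in the next library, a gap share of 0.831. Both exceed the critical value of Dixon's test for 5 samples. Over the 116 group values screened, chance alone would set about 5.8 apart (1 in 20), and 2 were.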

How the results depend on the processing

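Of the 40 members, 11 passed in the Strain comparison with TD, 9 in the No Strain one and 21 with both patch groups together. DESeq2 called 25, 15 and 27. Testing all genes without the filter left 1, 1 and 7, the title letter as a covariate 0, 1 and 7, and skeletal muscle markers as a covariate 0, 0 and 0. Fitting only the groups compared gave 9 for Strain and 23 for No Strain. Leaving out 1 library gave 1 to 28 for Strain, 1 to 18 for No Strain, 9 to 33 for both and 0 to 0 between Strain and No Strain. Of the 100 genes of the other interferon lists, 31, 32 and 52 were called in these comparisons. DESeq2 called 44, 48 and 62, no filter left 10, 23 and 33, the title letter 9, 23 and 27, and muscle markers 0, 3 and 0. Only the groups compared gave 55 for No Strain. Leaving out 1 library gave 6 to 46, 16 to 51, 30 to 68 and, between Strain and No Strain, 0 to 0. Shares of all genes called under these settings are not given, so shifts particular to the members cannot be told from shifts over all genes. The cause of these shifts was not tested.

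Few directions turned. With muscle markers as a covariate, the log2 fold change of Oasl1 was -0.31 for Strain and -0.043 for No Strain. Leaving out 1 library gave Oasl1 a range for Strain of -0.084 (without Strain replicate 2) to 0.68, and Usp18 one for No Strain of -0.055 (without No Strain replicate 2) to 0.61. Between Strain and No Strain the range was -0.24 (without Strain replicate 2) to 0.83 for Ifit2 and -0.21 to 0.78 for Cmpk2. No paired analysis was possible because the replicate numbers follow accession order and the titles share no number between groups. Counts of a few reads, as for Ifng in TD, limit the precision of its fold change.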

Other observations

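Adipocyte markers moved in the opposite direction to the members. They summed to 2253 to 4144 CPM in TD, 1481 to 2264 in Strain and 1355 to 1835 in No Strain. By edgeR 5 of 6 were called lower for Strain and 6 of 6 for No Strain. Over all genes, 6.41% were called lower and 6.2% higher for Strain, with 8.4% and 9.35% for No Strain. Endothelial markers summed to 395 to 493 CPM in TD, 463 to 669 in Strain and 528 to 603 in No Strain, with 2 of 6 called higher in each comparison. Their part in the member levels was not tested.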
